A study of Mus musculus with 6 samples.

Results

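The 10 mouse genes compared here by RNA level between XEN and ES cells belong to the cellular response to low oxygen. They were chosen by symbol and comprise HIF transcription factor subunits (Hif1a, Epas1, Arnt), hydroxylases and a ligase subunit that control them (Egln1, Egln3, Vhl) and HIF target genes (Vegfa, Bnip3, Bnip3l, Ddit4). All 10 were among the 17710 genes of the 6 deposited tables, and all 10 passed the filter on low counts, which kept 13581 genes. Extraembryonic endoderm (XEN) cells, lines of the lineage that forms yolk sac endoderm, came from strain ICR and grew in RPMI1640 with FBS, Glut and BME. Embryonic stem (ES) cells, lines of the pluripotent epiblast, came from strain 129/Ola and grew on gelatin in N2B27-2iLIF. Each group held 3 libraries of total RNA, named A, B and C, from feeder-free cells under normal conditions. Nothing in the labels ties A, B and C to separate cultures or lines. The p-values therefore rest on library-to-library spread that may be technical. Cell type, strain and medium differ together between the groups and cannot be told apart, and the labels give no oxygen level.

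Hypoxia-inducible factors are dimers of an alpha subunit, encoded by Hif1a, Epas1 or Hif3a, with the beta subunit ARNT. In the presence of oxygen, prolyl hydroxylases of the EGLN family modify the alpha subunits, which the VHL ubiquitin ligase then marks for degradation, so the amount of active factor is set largely at the protein level and cannot be read from mRNA. When oxygen is low, the alpha subunits persist and the dimer binds a short core motif, ACGTG or GCGTG, at genes of angiogenesis, glycolysis, mitophagy and growth control. Egln3 and Egln1 are HIF targets in many cells, which makes the hydroxylases part of a feedback loop.

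The core motif was searched on both strands in the 250 bases before the annotated start of each gene, using RefSeq promoters of build GRCm38.p6. The table matched 8 of the 10 genes, and Epas1 and Bnip3l are named only. Of the 9 windows of these genes (Vegfa has 2 annotated starts), 7 held at least 1 match, and 38.6% of all 32851 mouse windows of the same length did. The windows of the 8 genes ran from 50.8% to 86.0% in GC content, against a median of 52.4% over all windows. Windows of 4 genes are shown, 3 of genes that were higher in XEN cells and that of Ddit4, which was lower there, because the same letters occur in both kinds. Each reads 5′ to 3′ on the strand of the gene and ends at the last base before the start, and capitals mark ACGTG or GCGTG on either strand (CACGT and CACGC are the opposite-strand forms, and CACGTG, also the E-box motif of other factors, holds ACGTG on both strands).
Egln3, chr12:54203875-54204124, minus strand: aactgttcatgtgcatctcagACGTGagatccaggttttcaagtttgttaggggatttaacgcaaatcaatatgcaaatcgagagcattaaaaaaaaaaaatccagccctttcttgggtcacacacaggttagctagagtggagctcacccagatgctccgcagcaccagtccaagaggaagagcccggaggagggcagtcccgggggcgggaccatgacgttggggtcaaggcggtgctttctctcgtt
Egln1, chr8:124949255-124949504, minus strand: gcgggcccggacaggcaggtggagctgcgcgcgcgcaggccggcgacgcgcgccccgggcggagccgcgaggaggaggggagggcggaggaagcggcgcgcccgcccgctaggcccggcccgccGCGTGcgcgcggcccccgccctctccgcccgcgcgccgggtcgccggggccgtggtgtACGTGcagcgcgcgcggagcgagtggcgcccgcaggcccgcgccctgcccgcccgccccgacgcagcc
Bnip3, chr7:138909507-138909756, minus strand: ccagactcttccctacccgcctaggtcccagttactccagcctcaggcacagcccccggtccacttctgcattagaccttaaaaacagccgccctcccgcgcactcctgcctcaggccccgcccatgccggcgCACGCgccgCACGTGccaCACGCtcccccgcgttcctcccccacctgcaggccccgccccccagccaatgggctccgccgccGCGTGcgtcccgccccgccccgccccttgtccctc
Ddit4, chr10:59951771-59952020, minus strand: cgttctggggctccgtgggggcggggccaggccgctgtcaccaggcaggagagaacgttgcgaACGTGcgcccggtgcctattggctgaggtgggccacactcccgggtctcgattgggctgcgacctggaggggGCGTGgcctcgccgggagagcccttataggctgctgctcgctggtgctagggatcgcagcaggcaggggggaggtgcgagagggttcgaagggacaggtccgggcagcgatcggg
The Bnip3 window held 5 matches, of which 4 lay between 117 and 95 bases before the start, and 1.01% of all windows held 5 or more. The Egln3 window held 1 match, 229 to 225 bases before the start, and the windows of Egln1 and Ddit4 held 2 each. Hif1a had 3 matches and Arnt 1, while the Vhl window and the window of the upstream Vegfa start held none. The 2 Vegfa matches lay in the window of the downstream start, which is counted among the 7. A match describes these letters only, and no binding was measured.

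The libraries held 21134720 to 22375875 expected counts in XEN cells and 20675311 to 22037793 in ES cells. Marker levels went with the labels. All 10 markers of extraembryonic endoderm averaged at least 1 CPM (counts scaled to library depth) in XEN cells, with a summed level of 23293 to 25020 CPM in XEN and 285 to 304 CPM in ES cells. All 10 pluripotency markers did so in ES cells, and their sum was 186 to 207 CPM in XEN and 6331 to 6450 CPM in ES cells. The 8 fibroblast or feeder markers summed to 7.10 to 9.26 CPM in XEN and 6.82 to 6.94 CPM in ES cells. The 8 trophoblast markers summed to 12.7 to 15.8 CPM in XEN and 85.8 to 90.0 CPM in ES cells, and the 8 endothelial markers to 90.1 to 97.6 and 116.7 to 122 CPM. Hand1, Lum and Emcn, 1 from each of these last lists, were at 0 in all 6 libraries, but other members were not. Pecam1 was at 101.5 to 107.0 CPM in ES libraries, and Tek at 78.3 to 86.6 CPM in XEN libraries. Tfap2c was at 58.5 to 63.1 and Eomes at 22.7 to 24.0 CPM in ES libraries. Pdgfrb was at 6.67 to 8.59 CPM in XEN libraries. The part of other cells in the results was not tested. In bulk RNA, a change in the number of cells that express a gene and a change in RNA per cell cannot be told apart.

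All 10 genes passed an adjusted p of 0.05 in the edgeR quasi-likelihood test, 7 higher and 3 lower in XEN cells, but so did 88.7% of all genes tested, 42.0% being higher and 46.7% lower. The count of called members is close to this background and is not a result about them. The median log2 fold change was 0.90 for the 10 genes and -0.07 for all genes tested, and the medians of its absolute value were 0.98 and 0.92. The genes were chosen with earlier results of these data known, so these medians are not an independent comparison. Epas1, Egln3, Egln1 and Vegfa also passed the glmTreat test against a change of 2-fold, all higher in XEN cells. Of all tested genes, 42.7% passed it, 19.3% higher and 23.4% lower. The test against 2-fold was run in the main setting only. Vegfa lay close to its limit, a log2 fold change of 1. Over 17 alternative settings its log2 fold change ran from 0.87 to 1.18, and it was 0.99 with upper-quartile scaling. The 3 XEN libraries did not overlap the 3 ES libraries for any of the 10 genes, which held for 89.4% of all genes tested.

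**Figure D1:**
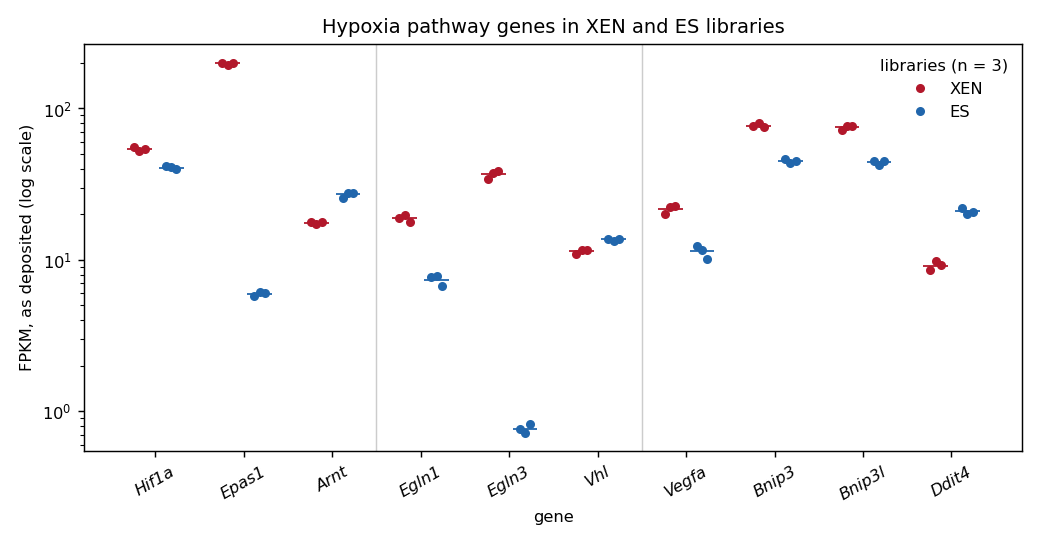
FPKM of the 10 genes (log axis) in each of the 3 XEN libraries (red) and 3 ES libraries (blue), with the mean as a line; grey lines part the HIF subunits, the hydroxylases with Vhl, and the targets. Epas1 lies near 200.5 FPKM in XEN and near 6.02 in ES libraries, and Egln3 is under 1 FPKM in ES libraries and 34.2 to 38.5 in XEN libraries.

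Among the HIF subunits the alpha subunit genes were both higher in XEN cells, Epas1 by far the more, while their partner Arnt was lower. Epas1, which encodes the alpha subunit also called HIF2A, was at 201, 194 and 200.5 FPKM (fragments scaled to transcript length and library depth, as deposited) in XEN libraries A, B and C, against 5.76, 6.18 and 6.02 FPKM in the ES libraries. The groups were far apart and the libraries of each group close together. In counts, Epas1 averaged 1085 ± 27.7 CPM in XEN cells and 29.8 ± 1.14 CPM in ES cells (SD, n = 3 each), a log2 fold change of 5.18 ± 0.04 (SE; 36.4-fold, edgeR adjusted p = 1.8e-26). In XEN libraries it ranked between 387 and 430 among genes by FPKM, above 97.1% to 97.4% of listed genes, whereas in ES libraries it stood above 49.3% to 50.7%. Changes of this size were not rare in this comparison: Epas1 ranked 1683 by absolute log2 fold change, and 87.6% of tested genes changed less.

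Hif1a, the widely expressed alpha subunit gene, was at 55.6, 52.5 and 53.6 FPKM in XEN libraries, against 41.4, 40.8 and 39.8 FPKM in ES libraries. All XEN libraries were above all ES libraries, but by a modest step, at 259 ± 8.20 CPM in XEN cells and 178 ± 3.30 CPM in ES cells (log2 fold change 0.54 ± 0.03, edgeR adjusted p = 2.5e-11). Arnt, the beta subunit gene, was at 17.8, 17.1 and 17.7 FPKM in XEN libraries, against 25.8, 27.7 and 27.8 FPKM in ES libraries. It was lower in every XEN library, with 78.1 ± 1.89 CPM in XEN cells and 110.3 ± 4.79 CPM in ES cells (log2 fold change -0.50 ± 0.04, edgeR adjusted p = 1.09e-09).

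The order of the 2 alpha subunit genes was therefore opposite in the 2 cell types. The FPKM ratio of Epas1 to Hif1a was 3.62, 3.69 and 3.74 in XEN libraries, against 0.139, 0.152 and 0.151 in ES libraries, a log2 difference of 4.64 ± 0.04 (SE). The two-sided exact permutation p was 0.1, the smallest that 3 against 3 libraries allow, and 0.15 after adjustment over 3 such ratios. With Hif3a, the gene of a further alpha subunit, added to the sum, Epas1 made up 78.6% ± 0.289 of alpha subunit FPKM in XEN cells and 12.2% ± 0.535 in ES cells. Hif1a made up 21.3% ± 0.278 in XEN cells and 82.9% ± 0.380 in ES cells, and Hif3a 0.0553% ± 0.0132 and 4.93% ± 0.206. The summed alpha subunit level was 252 ± 5.47 FPKM in XEN cells and 49.1 ± 0.837 FPKM in ES cells. Set against Arnt, the FPKM of Epas1 and Hif1a together came to 14.4 ± 0.0425 times that of Arnt in XEN cells and 1.73 ± 0.0927 times in ES cells.

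Both hydroxylase genes of the set were higher in XEN cells, and Vhl was slightly lower. Egln3, which encodes the hydroxylase PHD3, was at 34.2, 37.2 and 38.5 FPKM in XEN libraries, against 0.76, 0.72 and 0.82 FPKM in ES libraries. The ES values rest on 41, 41 and 47 expected counts, and the XEN values on 1976, 2154 and 2105. Like Epas1, Egln3 was far lower in ES than in XEN libraries. In ES libraries Egln3 stood above 27.1% to 28.1% of listed genes, a lower place than that of Epas1. Egln3 averaged 99.3 ± 5.91 CPM in XEN cells and 1.91 ± 0.129 CPM in ES cells (log2 fold change 5.70 ± 0.07, 51.9-fold, edgeR adjusted p = 1.41e-23). Egln1, which encodes PHD2, the main oxygen-sensing hydroxylase of most cells, was at 18.9, 19.9 and 17.7 FPKM in XEN libraries, against 7.72, 7.84 and 6.69 FPKM in ES libraries. Library C was the lowest of its group in both cell types, yet the groups stayed apart, at 67.4 ± 3.65 CPM in XEN cells and 24.3 ± 2.02 CPM in ES cells (log2 fold change 1.48 ± 0.08, 2.78-fold, edgeR adjusted p = 4.03e-15).

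The FPKM ratio of Egln3 to Egln1 was 1.80, 1.88 and 2.18 in XEN libraries, against 0.0984, 0.0918 and 0.123 in ES libraries. Egln3 was the more abundant transcript in XEN cells and the less abundant in ES cells, a log2 difference of 4.23 ± 0.15 (exact permutation p = 0.1, the smallest possible, and 0.15 adjusted over 3 ratios). The remaining family member Egln2, named here for this sum although outside the rule for named genes, was at 45.9 ± 2.15 CPM in XEN cells and 44.4 ± 1.63 CPM in ES cells and was not called (edgeR adjusted p = 0.388). By FPKM, Egln3 held 47.0% ± 2.06 of the summed EGLN level in XEN cells and 2.38% ± 0.147 in ES cells. Egln1 held 24.2% ± 1.34 in XEN cells and 23.0% ± 2.12 in ES cells, and Egln2 held 28.9% ± 0.765 and 74.6% ± 2.00. The sum of the family was 78.0 ± 2.95 FPKM in XEN cells and 32.3 ± 0.349 FPKM in ES cells.

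**Figure D2:**
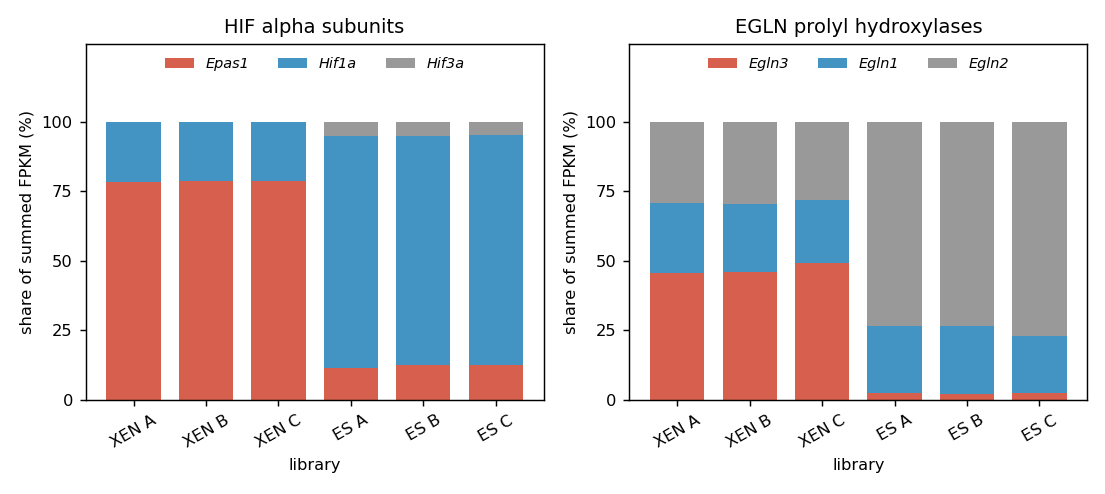
Share of summed FPKM (%) held by each alpha subunit gene (left) and each EGLN hydroxylase gene (right) in the 3 XEN and 3 ES libraries; each bar is 1 library. Epas1 holds 78.3% to 78.9% of the alpha subunit sum in XEN libraries and 11.6% to 12.5% in ES libraries, and Egln3 holds 45.5% to 49.3% of the EGLN sum in XEN libraries and 2.22% to 2.52% in ES libraries.

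Vhl, the substrate-binding subunit of the ligase, was at 11.0, 11.6 and 11.7 FPKM in XEN libraries, against 13.8, 13.4 and 13.8 FPKM in ES libraries. The groups did not overlap, but the step was the smallest of the 10 genes, with 31.4 ± 1.04 CPM in XEN cells and 34.3 ± 0.639 CPM in ES cells. The log2 fold change was -0.13 ± 0.03 (edgeR adjusted p = 0.0388), and 8.78% of tested genes changed less. The call was lost in 7 of 17 alternative settings, with adjusted p values of up to 0.116, while the direction stayed negative in all 17, with values of -0.27 to -0.10.

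**Figure D3:**
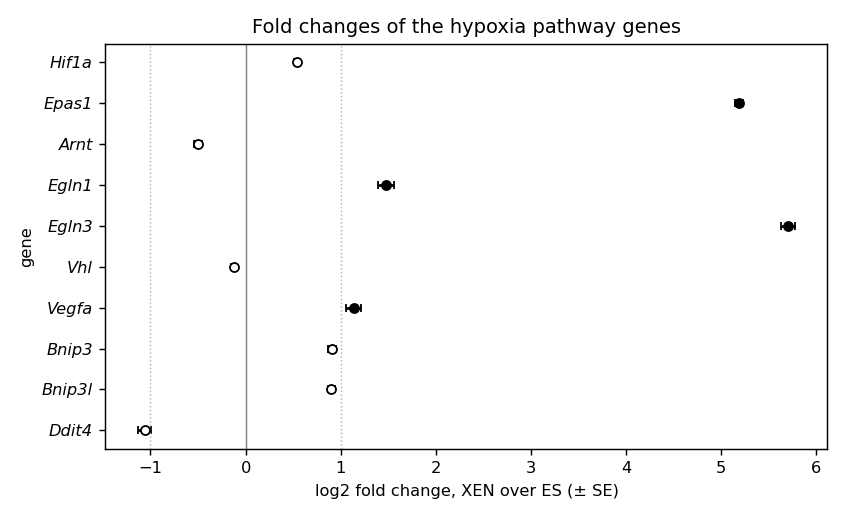
Log2 fold change of XEN over ES cells for the 10 genes, with SE bars from the 3 libraries of each group; filled points passed the glmTreat test against 2-fold and dotted lines mark 2-fold. Egln3 at 5.70 and Epas1 at 5.18 stand apart from the other 8 genes, which lie between -1.06 and 1.48.

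Of the 4 target genes, 3 were higher and 1 was lower in XEN cells, against 42.0% higher and 46.7% lower among all tested genes. Vegfa, the main angiogenic growth factor gene, was at 20.1, 22.4 and 22.5 FPKM in XEN libraries, against 12.4, 11.7 and 10.1 FPKM in ES libraries. Each XEN library was well above each ES library, with 74.6 ± 4.11 CPM in XEN cells and 34.0 ± 2.67 CPM in ES cells (log2 fold change 1.13 ± 0.08, 2.20-fold, edgeR adjusted p = 4.87e-13). Vegfa was counted over 11 transcripts, 1 of them added by the authors, and its length averaged over transcript use was 3381 to 3414 bases in XEN libraries and 3157 to 3290 bases in ES libraries. These lengths did not overlap either (exact permutation p = 0.1, the smallest possible), and which transcripts account for them was not tested. Smaller steps without overlap were seen for Hif1a, at 4691 to 4703 bases in XEN and 4676 to 4689 bases in ES libraries, and for Arnt, at 4358 to 4362 and 4364 to 4367 bases.

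Bnip3 and Bnip3l encode related receptors on the outer mitochondrial membrane that recruit autophagy and that bind BCL2 family proteins. Bnip3 was at 76.2, 80.0 and 74.9 FPKM in XEN libraries, against 46.5, 43.4 and 44.8 FPKM in ES libraries, with a log2 fold change of 0.91 ± 0.04 (1.88-fold, edgeR adjusted p = 2.78e-14). Bnip3l, also called NIX, was at 72.5, 76.8 and 76.4 FPKM in XEN libraries, against 44.96, 42.4 and 45.04 FPKM in ES libraries, with a log2 fold change of 0.90 ± 0.04 (1.87-fold, edgeR adjusted p = 7.49e-15). Both were clearly apart between groups and both were among the more abundant genes, above 91.9% to 92.6% of listed genes in XEN libraries and 86.8% to 88.0% in ES libraries. Their FPKM ratio was 1.05, 1.04 and 0.981 in XEN libraries, against 1.03, 1.02 and 0.994 in ES libraries, so that the 2 genes stood at nearly equal levels in each of the 6. The log2 difference of this ratio between groups was 0.0099 ± 0.0356 (SE; exact permutation p = 0.7).

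Ddit4, whose product REDD1 restrains the growth kinase complex mTORC1 and which also responds to other stresses and to glucocorticoids, was at 8.56, 9.78 and 9.19 FPKM in XEN libraries, against 22.1, 20.01 and 20.6 FPKM in ES libraries. It was the member that fell most, with 15.2 ± 0.944 CPM in XEN cells and 31.6 ± 1.64 CPM in ES cells (log2 fold change -1.06 ± 0.07, edgeR adjusted p = 5.63e-12). It did not pass the test against 2-fold (glmTreat adjusted p = 0.163).

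By FPKM, which allows levels of different genes to be compared, the order in XEN cells was Epas1, Bnip3, Bnip3l, Hif1a, Egln3, Vegfa, Egln1, Arnt, Vhl and Ddit4. The libraries of Bnip3 overlapped those of Bnip3l, and those of Egln1 overlapped those of Arnt, while all other neighbours were separate. In ES cells the order was Bnip3, Bnip3l, Hif1a, Arnt, Ddit4, Vhl, Vegfa, Egln1, Epas1 and Egln3, and there only Bnip3 and Bnip3l overlapped. The coefficient of variation of CPM ran from 2.42% for Arnt to 6.23% for Ddit4 in XEN cells and from 1.86% for Hif1a to 8.30% for Egln1 in ES cells. Expected counts were whole in every library for 9 of the 10 genes, Bnip3l being the exception. GRCm38 gene models place a long non-coding RNA gene over Hif1a and over Egln1 and a pseudogene over Bnip3. None of these overlapping genes was listed in the deposited tables. The strand setting of the counting is not given in the sources used here, and whether reads of the overlapping genes were counted for the members was not tested.

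Genes beyond the 10 were taken from 5 lists of the same system. Their counts stand beside a background in which 42.0% of all tested genes were called higher and 46.7% lower in XEN cells, with a median log2 fold change of -0.07, and no list was tested as a group. Of 16 other regulators of HIF, all tested, 6 rose, 6 fell and 4 were not called in XEN cells. Their median log2 fold change was -0.06, and upper-quartile scaling gave 5 higher and 8 lower. Cited2, which encodes a competitor of HIF for the coactivators CBP and p300 and is itself a HIF target, was at 1089.6 ± 87.5 CPM in XEN cells and 49.9 ± 0.888 CPM in ES cells (log2 fold change 4.45 ± 0.07, edgeR adjusted p = 3.36e-21). Hif3a, whose shorter products oppose other alpha subunits, had 28, 16 and 19 counts in XEN libraries, against 359, 366 and 341 in ES libraries (log2 fold change -3.97 ± 0.22, edgeR adjusted p = 2.9e-16). Os9, a lectin of ER-associated degradation, rose by 1.04 ± 0.03 and Usp20, a deubiquitinase gene, fell by 1.48 on the log2 scale. The chaperone gene Hsp90ab1, the most abundant of the list at 2041 ± 20.5 FPKM in XEN cells and 3064 ± 43.7 FPKM in ES cells, fell by 0.46 on the log2 scale.

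Of 25 other HIF targets, 21 were tested, of which 14 rose, 6 fell and 1 was not called, against 42.0% higher and 46.7% lower among all tested genes. Their median log2 fold change was 0.56. Upper-quartile scaling gave 13 higher and 7 lower. P4ha2, a collagen prolyl hydroxylase gene, was at 341 ± 4.97 CPM in XEN cells and 4.96 ± 0.410 CPM in ES cells (log2 fold change 6.10 ± 0.07, edgeR adjusted p = 2.06e-26). Car12, a carbonic anhydrase gene, was at 102 ± 3.16 CPM in XEN cells and 2.05 ± 0.538 CPM in ES cells (log2 fold change 5.63 ± 0.20, edgeR adjusted p = 2.74e-22). On the other side, Pdk1, whose product inhibits pyruvate dehydrogenase, was at 14.8 ± 0.596 CPM in XEN cells and 99.2 ± 2.35 CPM in ES cells (log2 fold change -2.74 ± 0.04, edgeR adjusted p = 1.6e-21). Ldha, lactate dehydrogenase A and the most abundant of the list at 846 ± 38.0 FPKM in XEN cells and 433 ± 10.4 FPKM in ES cells, rose by 1.09 ± 0.04.

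Of the 9 other VEGF ligand and receptor genes, 7 were tested. Of these, 4 rose and 3 fell, against 42.0% higher and 46.7% lower among all tested genes. Their median log2 fold change was 0.40. Flt1, a VEGF receptor that also acts as a decoy, was at 83.2 ± 14.7 CPM in XEN cells and 0.132 ± 0.0411 CPM in ES cells, with 2123, 1672 and 1448 counts in XEN libraries and 2, 4 and 3 in ES libraries (edgeR adjusted p = 2.69e-06). The fitted log2 fold change of 9.23 rests on these few ES counts and depends on the prior count. The SE beside it, 0.21, comes from log2 CPM with a prior count of 2 and not from the fit. With limma on log2 FPKM the log2 fold change was 6.70 after adding 0.1 FPKM and 3.75 after adding 1 FPKM. The coreceptor gene Nrp1 was higher in XEN cells (log2 fold change 6.18 ± 0.13, edgeR adjusted p = 4.66e-19), on 586, 543 and 444 counts in XEN libraries and 7, 7 and 9 in ES libraries. Its relative Nrp2 was at 5.55 ± 0.789 CPM in XEN cells and 39.6 ± 0.716 CPM in ES cells (log2 fold change -2.83 ± 0.12, edgeR adjusted p = 4e-18). Vegfb, the ligand with the highest level of the list at 70.3 ± 2.02 FPKM in XEN cells and 58.0 ± 0.0643 FPKM in ES cells, rose by 0.40 ± 0.02.

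The next list held 13 genes for other mitophagy receptors and for partners of BNIP3 proteins, mainly of the BCL2 and LC3 families. Of these, 8 rose, 2 fell and 3 were not called, against 42.0% higher and 46.7% lower among all tested genes. Their median log2 fold change was 0.14, and upper-quartile scaling gave 6 higher and 5 lower. Bcl2l1, the anti-apoptotic BCL-XL gene, was at 138 ± 6.72 CPM in XEN cells and 38.3 ± 1.84 CPM in ES cells (log2 fold change 1.84 ± 0.06, edgeR adjusted p = 8.8e-19). Bcl2l13, a mitophagy receptor gene, was at 134 ± 1.43 CPM in XEN cells and 52.1 ± 2.21 CPM in ES cells (1.36 ± 0.04 on the log2 scale, edgeR adjusted p = 2.3e-17). Fkbp8, a further receptor gene, was at 50.4 ± 1.92 CPM in XEN cells and 126.6 ± 2.38 CPM in ES cells (log2 fold change -1.33 ± 0.04, edgeR adjusted p = 3.85e-17). The LC3 gene Map1lc3b was at 85.2 ± 1.13 CPM in XEN cells and 138 ± 1.03 CPM in ES cells (-0.69 ± 0.01 on the log2 scale, edgeR adjusted p = 6.1e-13). The inner membrane receptor gene Phb2, the most abundant at 313 ± 10.6 FPKM in XEN cells and 311 ± 5.95 FPKM in ES cells, rose by 0.14 ± 0.03, a call that upper-quartile scaling ended and turned to -0.01. Of 13 genes related to DDIT4 or to the regulation of mTORC1, 3 rose and 10 fell, against 42.0% higher and 46.7% lower among all tested genes. Their median log2 fold change was -0.34, and upper-quartile scaling also gave 3 higher and 10 lower. Txnip, a thioredoxin-binding protein gene, was at 54.1 ± 2.93 CPM in XEN cells and 192.5 ± 5.42 CPM in ES cells (log2 fold change -1.83 ± 0.05, edgeR adjusted p = 2.66e-19). Ddit4l, the paralogue of Ddit4, was at 7.65 ± 1.45 CPM in XEN cells and 15.4 ± 1.13 CPM in ES cells (edgeR adjusted p = 1.41e-07). Akt1s1, a subunit gene that inhibits mTORC1, was at 103.6 ± 2.83 CPM in XEN cells and 34.2 ± 2.38 CPM in ES cells (log2 fold change 1.60 ± 0.06, edgeR adjusted p = 1.53e-17). Tbc1d7 of the TSC complex rose by 0.63 ± 0.09 on the log2 scale. The 14-3-3 gene Ywhag, the most abundant at 77.1 ± 0.884 FPKM in XEN cells and 162 ± 1.52 FPKM in ES cells, fell by 0.94 on the log2 scale.

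**Figure D4:**
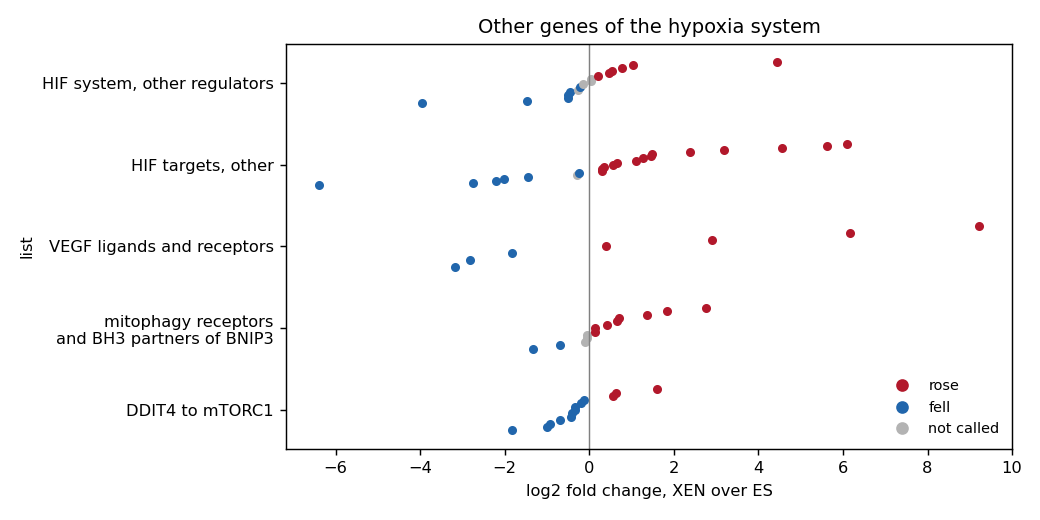
Log2 fold change of XEN over ES cells for each tested gene of the 5 further lists, red where it rose, blue where it fell and grey where it was not called in the edgeR test. Fold changes run up to 9.23 for Flt1, and every list holds genes on both sides of 0.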

How the data were processed

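Total RNA of 3 XEN and 3 ES libraries was sequenced on the BGISEQ-500 platform, per the labels, and titles gave each library its group and letter. Build mm9, Bowtie2, RSEM and DESeq2 are named, without versions or roles, in the submitters' processing notes. The deposited tables, 1 per library, give expected counts (estimated counts, not all whole), FPKM of the authors and a transcript length, another value in bases, per the file headers. Genes missing from a library's table were set to 0.

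Expected counts were rounded, filtered with filterByExpr and scaled by TMM, with factors of 0.951 to 0.960 in XEN and 1.044 to 1.05 in ES libraries. CPM values use library totals times these factors. Marker levels and the value of 3 counts use library totals alone, and FPKM are as deposited, so CPM and FPKM can differ between groups by different steps. XEN and ES cells were compared with the edgeR 4.0.16 quasi-likelihood test (R 4.3.3, robust dispersion, group as the only term, Benjamini-Hochberg adjustment over 13581 genes with a threshold of 0.05). A change beyond 2-fold was tested with glmTreat. SEs of log2 fold changes come from the spread of log2 CPM with a prior count of 2. Ratios of FPKM were compared by two-sided exact permutation. Members and lists were chosen with earlier results of these data known. All 10 members are named; each further list gives its 2 largest called changes each way among genes averaging 5 CPM or more, and its gene of highest FPKM. One gene that this rule names is not reported here. Alternatives were other scalings and filters, a replicate block, left-out libraries, DESeq2 1.42.0 and limma 3.58.1 on log2 FPKM. Replicate pairs differed by more than sampling noise (chi-square over degrees of freedom at least 2.44), and 3 counts came to 0.134 to 0.145 CPM. The code was tested on simulated data. Only promoter windows have coordinates, since the annotation used here is GRCm38.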

Additional observations from a re-analysis of the deposited data

Results flagged for a closer look

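An unnamed gene model, annotated with the same orthology term as Bnip3l and counted apart from it, held expected counts that the comparison of Bnip3l did not use. It averaged 6.15 ± 0.371 CPM in XEN libraries and 2.43 ± 0.378 CPM in ES libraries (SD, n = 3 each), with a log2 fold change of 1.34 ± 0.13 (SE, edgeR adjusted p = 3.01e-08), and was higher in 3 of 3 XEN libraries than in any ES library. It held 2.34% to 2.52% of the counts of both rows together in XEN libraries and 1.67% to 2.09% in ES libraries. Bnip3l was the member whose expected counts were not whole, and those of the model were not whole either. ES replicate A had 2916.67 for Bnip3l and 62.33 for the model, and XEN replicate A had 5078.48 and 121.52. In every library the fractions of the 2 rows complete a whole number. How reads were shared between the rows was not tested, so the change of the model is not separate from that of Bnip3l.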

How the results depend on the processing

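The 7 members higher and 3 lower in XEN cells kept their direction in all 17 alternatives, and 9 of the 10 also kept their call. Vhl lost its call without the filter on low counts, with DESeq2, with the replicate block and without XEN replicate A or B or ES replicate A or C. Whether the letters pair the libraries was not settled. Correlations of same-letter deviations were small, from 0.00761 to 0.0327, although each XEN library correlated best with the ES library of its own letter. With the replicate block 5682 genes were higher and 6318 lower, against 5707 and 6337 without it. Upper-quartile scaling, no composition factors and totals without the 10 genes over 5000 CPM, the last chosen after seeing the data, moved the median log2 fold change of all genes from -0.07 to -0.21, -0.20 and -0.19. Small changes such as that of Vhl, and that of Vegfa close to 2-fold, are to be read relative to this shift. The log2 difference of the Bnip3 to Bnip3l ratio lay between -0.0088 and 0.0411 when 1 library was left out, negative without XEN replicate A or B or ES replicate C; that of Egln3 to Egln1 fell to 3.17 with a pseudocount of 1 FPKM, in place of 4.23. Of the named genes of other lists, Phb2 turned to -0.0107 with upper-quartile scaling and was not called in 4 other settings; the cause was not tested. Summing the unnamed model into Bnip3l, chosen after seeing the data, changed no call among the 10 genes.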
